A study of Mus musculus with 20 samples.

Results

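The mouse testis arrays described here were those of spermatocytes in mid-pachytene (2 arrays), late-pachytene (1 array) and diplotene (2 arrays), set against cells sorted before them, at leptotene/zygotene (3 arrays), and against cells that had passed both meiotic divisions, the round spermatids (4 arrays). These 12 of the 20 arrays of the series were chosen by the meiotic fraction in their labels, and the 5 arrays from mid-pachytene to diplotene are called later prophase below. All 20 arrays measured RNA of adult males, 10 to 16 weeks old, of the F1 cross C57BL/6 x DBA/2J, with no treatment or engineered allele named in the labels; cells were stained with Hoechst 33342 and sorted by fluorescence, and every array held RNA pooled from several sorts. Signals were GC-RMA intensities on Affymetrix MOE430 version 2 arrays, used as log2; a probe set is the group of probes that reads 1 transcript, and signals under log2 5 lie near background.

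In meiotic prophase of the male, homologous chromosomes pair and exchange DNA. At leptotene and zygotene the strand breaks form and the chromosome axes assemble, at pachytene the pairs are fully synapsed and the unpaired X and Y are silenced in the sex body, and at diplotene synapsis is dissolved ahead of the meiotic divisions. Pachytene is also known for a burst of transcription, driven in part by the factor A-MYB, of which the PIWI-interacting small RNAs and many transcripts stored for spermatids are products.

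Transcripts that peaked in later prophase were more numerous than transcripts that dipped there. Of 22396 probe sets tested, 1362 (6.08%) were higher in later prophase than on both sides and 678 (3.03%) were lower than on both sides. Those higher belonged to 1014 genes, among them Piwil1, Tesmin, Id4 and Mlh3, and those lower to 527 genes, among them Rrm2, Abcg2, Suv39h2 and Cdc25c. On chromosome X no probe set of 548 was higher than both sides, and 62 were lower than both. Courses in a single direction were more common than peaks or dips. Below leptotene/zygotene and above round spermatids, as on a continuous descent, were 3273 probe sets (14.6%), and 1549 (6.92%) were above the first and below the second.

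A probe set was counted as higher (or lower) than both sides when limma, fitted over all 20 arrays, gave a difference of the same sign and an adjusted p of at most 0.05 in each of 2 comparisons. Against leptotene/zygotene 26.2% of probe sets were higher and 32.6% lower; against round spermatids 29.1% were higher and 19.4% lower. The 2 comparisons share the 5 later prophase arrays, so they are not independent. With no overlap asked for as well, that is all 5 arrays beyond all 7 arrays of the 2 sides, 793 probe sets (3.54%) were higher and 324 (1.45%) lower; without regard to p, all 5 arrays lay above all 7 for 3.78% of probe sets and below for 1.77%. At the border of the rule, Arl14ep, just inside it, differed by 1.12 and 0.90 on the log2 scale from the 2 sides with a larger adjusted p of 0.04998, and Rnf41, just outside, by -1.19 and -0.66 with 0.0501. Mid-pachytene taken alone as later prophase gave 605 probe sets higher and 242 lower, which is fewer by over 1.5 times.

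**Figure D1:**
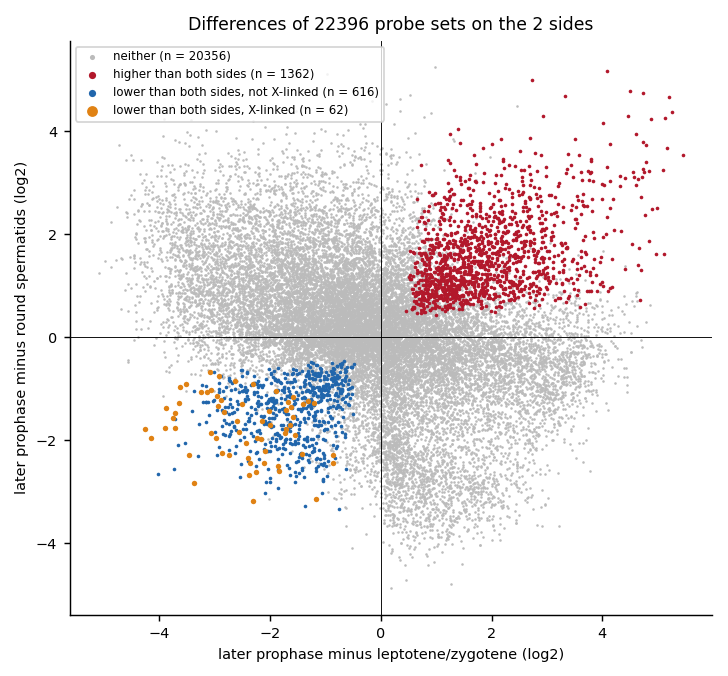
Log2 difference of later prophase (5 arrays) from leptotene/zygotene (3 arrays, horizontal axis) and from round spermatids (4 arrays, vertical axis) for each of 22396 probe sets. Probe sets higher than both sides (red, 1362) fill the upper right, those lower than both (blue, 616, and orange for the 62 on chromosome X) the lower left, and the X-linked ones reach the larger falls from leptotene/zygotene.

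Over the probe sets that were higher, the median difference was 1.78 from leptotene/zygotene and 1.45 from round spermatids, against -0.14 and 0.17 over all probe sets tested. Over those that were lower the medians were -1.56 and -1.32. Median centring moved the medians over all probe sets to -0.11 and 0.24, and quantile normalization to -0.01 and 0.10. The smaller of the 2 differences was at least 1 for 922 probe sets that were higher and for 432 that were lower.

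Of 20 measured pachytene-to-diplotene markers, 18 were above leptotene/zygotene, though 3 (Piwil1, Tesmin and Pou5f2) were higher than both sides and Cdc25c was lower than both. Of 15 round spermatid markers 14 were below the round spermatids (93.3%, against 23.2% of all genes tested). Of 15 spermatogonial markers 13 were below leptotene/zygotene (86.7%, against 34.6%). Markers of leukocytes passed no test, and their summed signal was 145 to 209 in later prophase, 152 to 320 in leptotene/zygotene and 159 to 276 in round spermatids. Sertoli markers summed to 1615 to 10405 in later prophase, 6992 to 10460 in leptotene/zygotene and 720 to 10610 in round spermatids. Spermatogonial markers summed to 22138 and 18952 in mid-pachytene, against 4261 to 7366 in the 3 later arrays, 38434 to 42818 in leptotene/zygotene and 1044 to 1941 in round spermatids. In spermatogonia they summed to 29302 to 44159, so this list did not set spermatogonia apart from leptotene/zygotene. Round spermatid markers, the protamines and transition proteins foremost, read 20238 in late-pachytene, 42030 to 73813 in the other 4 later prophase arrays, 31457 to 49725 in leptotene/zygotene and 127576 to 177786 in round spermatids. Leydig markers, 4 genes none of which passed above either side, summed to 2830 to 5392 in later prophase (median 4046), 2351 to 3545 in leptotene/zygotene (median 2767) and 2515 to 3547 in round spermatids (median 3075). Peritubular, vessel and blood markers summed to 1946 and 1520 in mid-pachytene and 316 to 371 in the 3 later arrays, against 482 to 1799 and 586 to 1147. The part of such carried-over cells or RNA in the results was not tested. In sorted pools, fewer cells of a type and less RNA per cell cannot be told apart.

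The 20 genes ranked highest were Elfn2, Tmem30c, 4921525O09Rik, Tesmin, Abca5, 4931408D14Rik, 4933404O12Rik, 1700006A11Rik, Chst1, Myorg, Zfp389, Id4, Mif, Dennd5b, Asrgl1, Mgat5, Aym1, 4930444F02Rik, AI467606 and D130017N08Rik. The ranking took the smaller of the 2 differences, with signals under log2 5 raised to 5, among probe sets whose arrays did not overlap. Every one of these 20 was at its lowest mean in spermatogonia or pre-leptotene cells. The higher set as a whole also had its lowest medians there, 5.91 and 5.94, against 6.42 in leptotene/zygotene and 6.69 in round spermatids. The share of all probe sets with such a minimum was not counted.

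Tmem30c, of the CDC50 family whose other members are subunits of phospholipid flippases, read 3.59, 5.23 and 4.71 on the leptotene/zygotene arrays and 8.62 and 10.04 in mid-pachytene, 9.52 in late-pachytene and 9.71 and 10.52 in diplotene. The round spermatid arrays read 5.34, 7.14, 5.85 and 5.71, so that all 5 later prophase arrays lay above all 7 others. The difference was 5.18 ± 0.43 (SE) from leptotene/zygotene (limma adjusted p = 2.2e-07) and 3.67 ± 0.39 from round spermatids (adjusted p = 2.6e-06); with signals under 5 raised to 5 the first was 4.61. Of its 2 probe sets tested, 1 was higher than both sides.

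Myorg, a protein of a glycosidase family, was near background outside later prophase, with 3.98 to 4.09 in leptotene/zygotene and 4.10 to 5.12 in round spermatids. It read 7.66 and 8.19 in mid-pachytene, 8.77 in late-pachytene and 8.24 and 8.05 in diplotene. With signals under 5 raised to 5, the differences were 3.18 and 3.15, and without that 4.14 ± 0.34 and 3.75 ± 0.31 (adjusted p = 2.1e-07 and 3.0e-07).

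Tesmin, a CXC-domain protein named for its expression in testis, read 8.37, 8.58 and 6.30 in leptotene/zygotene, 11.87 and 11.29 in mid-pachytene, 12.12 in late-pachytene, and 11.20 and 9.78 in diplotene. Round spermatids read 9.04, 8.31, 6.70 and 5.56. The groups did not overlap, and the differences were 3.50 ± 0.79 and 3.85 ± 0.72 (adjusted p = 0.0012 and 0.00038), with 3 of 4 probe sets higher than both sides.

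Id4, an inhibitor of basic helix-loop-helix factors that is used as a mark of spermatogonial stem cells, was among the genes that peaked. It read 6.23 to 6.99 in leptotene/zygotene, 9.75 and 10.26 in mid-pachytene, 10.76 in late-pachytene, 9.89 and 9.66 in diplotene and 6.54 to 7.30 in round spermatids. Its means in spermatogonia and pre-leptotene cells, 4.99 and 5.01, were the lowest of the 8 fractions. All 3 of its probe sets were higher than both sides, and the one ranked here differed by 3.47 ± 0.37 and 3.11 ± 0.34 (adjusted p = 1.8e-06 and 3.5e-06). Id4 was the only one of the 15 spermatogonial markers that was higher than both sides (6.67%, against 5.33% of all genes tested).

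Chst1, a sulfotransferase of glycans, read 8.42 to 9.77 in leptotene/zygotene, 12.16 to 13.17 in later prophase and 8.58 to 9.85 in round spermatids. Mgat5, which adds a branch to N-glycans, read 6.79 to 7.68, 9.58 to 10.85 and 5.83 to 7.61 in the same order. Elfn2, a leucine-rich repeat membrane protein, had the largest smaller difference, 4.47 ± 0.70 and 4.29 ± 0.64, with 4.66 to 6.75 in leptotene/zygotene, 8.78 to 11.44 in later prophase and 3.53 to 6.60 in round spermatids. For Mif, a cytokine, 1 of 2 probe sets was higher, at 9.14 to 10.38 in later prophase against 4.27 to 6.33 and 5.51 to 7.17. Differences over the 20 genes ran from 2.98 (Mgat5) to 5.46 (4921525O09Rik) against leptotene/zygotene and from 2.93 (D130017N08Rik) to 4.29 (Elfn2) against round spermatids.

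**Figure D2:**
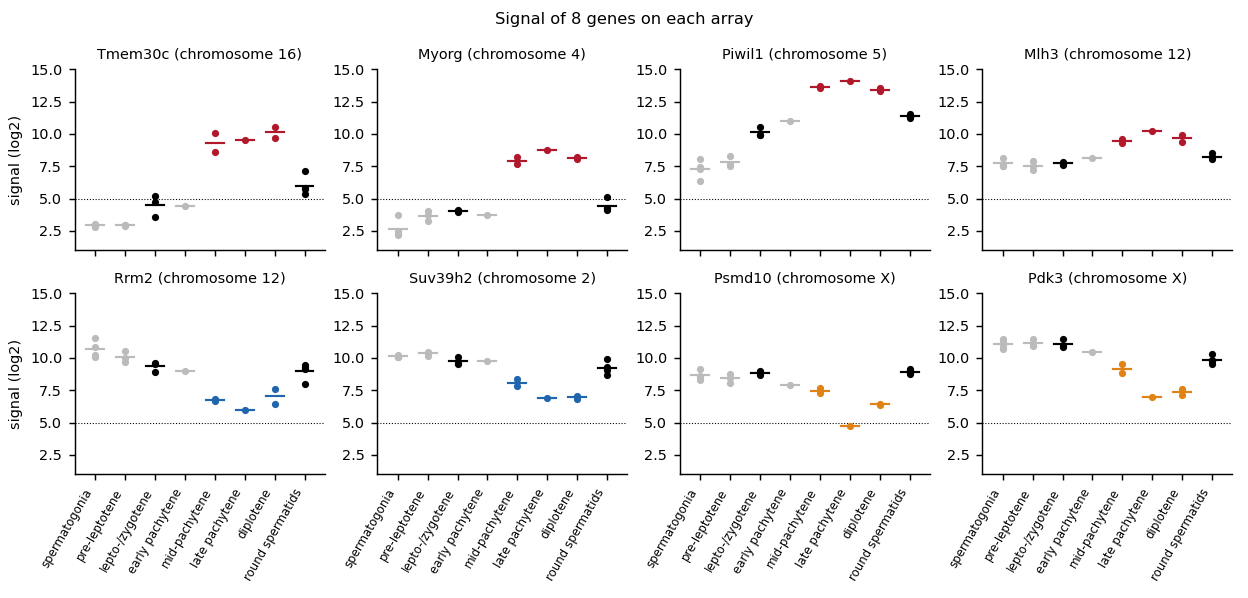
Log2 signal of 8 genes on each of 20 arrays, 1 point per array, with a bar at the mean of each fraction and a dotted line at log2 5. Later prophase is coloured, the 2 sides are black and fractions outside the comparison are grey; Tmem30c, Myorg, Piwil1 and Mlh3 stand above both sides, and Rrm2, Suv39h2 and the X-linked Psmd10 and Pdk3 below both.

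PIWI and piRNA genes showed the largest share of higher genes among the function lists. Of 22 measured, 4 were higher than both sides (18.2%, against 5.33% of all 11992 genes tested) and none was lower. Piwil1, the PIWI protein of pachytene cells, read 9.91 to 10.51 in leptotene/zygotene, 13.59 and 13.68 in mid-pachytene, 14.13 in late-pachytene, 13.52 and 13.30 in diplotene and 11.24 to 11.55 in round spermatids. Its differences were 3.53 ± 0.32 and 2.29 ± 0.29 (adjusted p = 4.2e-07 and 1.2e-05). Tdrd5, a Tudor-domain protein of germ granules, was higher by 2.12 ± 0.38 and 2.83 ± 0.34, and Pld6, which processes piRNA precursors at mitochondria, by 2.10 ± 0.26 and 1.50 ± 0.23. Tdrd12 was higher by 1.17 ± 0.21 and 0.51 ± 0.20, and its call against round spermatids (adjusted p = 0.04) was lost in several other settings. Other genes of the pathway did not peak: Mybl1, which encodes A-MYB, rose from leptotene/zygotene by 2.90 and differed from round spermatids by 0.04 (adjusted p = 0.939), while Mov10l1 was 0.95 below leptotene/zygotene and 2.19 above round spermatids.

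The promoters of Piwil1 and of 4931408D14Rik are shown because both genes peaked and both windows hold the core of the MYB binding site, CAGTT on either strand, in capitals. Each window runs from 250 bases before to 50 after the annotated start (RefSeq, GRCm38.p6), on the strand of the gene. Piwil1 lies at chr5:128735996-128736295 on the plus strand and 4931408D14Rik at chr19:37264046-37264345 on the minus strand.
Piwil1: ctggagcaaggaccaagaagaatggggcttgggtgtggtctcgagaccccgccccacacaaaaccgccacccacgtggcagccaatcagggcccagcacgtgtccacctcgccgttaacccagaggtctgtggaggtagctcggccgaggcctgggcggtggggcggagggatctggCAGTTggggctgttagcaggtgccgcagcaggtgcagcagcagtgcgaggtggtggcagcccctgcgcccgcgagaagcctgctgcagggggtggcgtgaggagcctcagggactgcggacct
4931408D14Rik: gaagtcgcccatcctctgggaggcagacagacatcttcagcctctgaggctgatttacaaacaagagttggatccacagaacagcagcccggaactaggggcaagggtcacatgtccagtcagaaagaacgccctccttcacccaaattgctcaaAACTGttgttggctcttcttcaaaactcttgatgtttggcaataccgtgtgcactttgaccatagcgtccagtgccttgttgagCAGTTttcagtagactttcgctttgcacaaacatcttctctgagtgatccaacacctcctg
The same letters were present in 38.5% of 1035 promoters of genes with a probe set higher than both sides, in 38.3% of 12501 promoters of genes tested and in 44.8% of all 32851 promoters of the table; the first of these shares is close to the second. The E2F site TTCCCGC (8.6% against 8.13% of genes tested), the RFX motif GTTGCCA (4.73% against 4.52%), the CRE motif TGACGTNA (4.83% against 4.74%), CCAAT (39.8% against 38.0%) and the GC box GGGCGG (63.0% against 60.1%) were likewise close to the share over genes tested. Promoters were found for 823 of the 1007 genes with higher and no lower probe sets.

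Of 18 crossover genes 1 was higher than both sides (5.56%, close to the 5.33% of all genes tested) and none was lower. That gene was Mlh3, a mismatch-repair family gene that acts in crossover formation, which read 7.60 to 7.87 in leptotene/zygotene, 9.62 and 9.33 in mid-pachytene, 10.22 in late-pachytene, 9.95 and 9.41 in diplotene and 8.09 to 8.49 in round spermatids; the differences were 1.99 ± 0.23 and 1.46 ± 0.21 (adjusted p = 3.5e-06 and 4.0e-05). Of 22 genes of break formation and strand exchange, 14 were below leptotene/zygotene (63.6%, against 34.6% of all genes tested) and 10 above round spermatids (45.5%, against 30.2%). Lower than both sides were 2 (9.09%, against 3.44%) and higher 1 (4.55%, against 5.33%). Tex15, needed for loading of the strand exchange proteins, was lower than both, by -2.92 ± 0.23 and -1.0 ± 0.21, but its 2 mid-pachytene arrays (11.42 and 11.15) lay within the round spermatid range of 10.46 to 11.50. Nbn, of the complex that senses breaks, was lower by -0.71 ± 0.27 and -0.84 ± 0.25 with groups that overlapped, and lost the call in 12 other settings. Xrcc3 was higher by 0.80 ± 0.28 and 1.31 ± 0.26, also with overlap, for 1 of its 2 probe sets. With the project as a block the smaller difference was 0.55 (adjusted p = 0.0732), and the call was lost in 7 other settings, among them without leptotene/zygotene replicate 1 or 3, without the late-pachytene array and without diplotene replicate 1 (adjusted p = 0.0549 to 0.11).

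Among 16 genes of the synaptonemal complex and the axis, Sycp2, a component of the axis, was higher than both sides and the cohesin subunit Smc3 lower. That is 6.25% of the list in each direction, against 5.33% of all genes tested higher and 3.44% lower. Sycp2 read 11.40 to 12.20, then 12.99 to 13.43 in later prophase and 11.45 to 11.84 in round spermatids, a difference of 1.48 ± 0.29 and 1.51 ± 0.27. Smc3 was 9.68 and 9.12 in mid-pachytene, next to the 9.13 to 9.57 of round spermatids, and 7.19 to 7.88 in late-pachytene and diplotene. It fell after mid-pachytene, with diplotene below mid-pachytene by -1.76 (adjusted p = 0.0025).

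Of 26 genes of the sex body and of silencing, 4 were higher than both sides (Mdc1, Atr, H2ax and Macroh2a1), 15.4% against 5.33% of all genes tested, and 3 were lower (Suv39h2, Ube2a and Chek1), 11.5% against 3.44%. Above round spermatids were 18 (69.2%, against 30.2%). Mdc1, which spreads the phosphorylated H2AX mark over the sex chromosomes, read 7.89 to 9.26, then 10.10 to 10.87 in later prophase and 8.94 to 9.84 in round spermatids, a difference of 2.09 ± 0.31 and 1.18 ± 0.28. Atr, the kinase that lays down that mark, was higher by 1.05 and 1.33, and H2ax, its substrate, by 1.02 and 0.71. Macroh2a1, a histone variant of silent chromatin, was higher by 1.56 ± 0.39 and 1.22 ± 0.36. Its call was lost without the arrays of project 6 (projects are described below), with a smaller difference of 1.19. It was also lost with late-pachytene alone (1.37) or diplotene alone (0.92) as later prophase. Suv39h2, a histone H3 methyltransferase of testis heterochromatin, ran the other way, with 9.57 to 10.07 in leptotene/zygotene, 8.36 and 7.82 in mid-pachytene, 6.90 in late-pachytene, 6.85 and 7.06 in diplotene and 8.70 to 9.94 in round spermatids. It was lower by -2.35 ± 0.26 and -1.86 ± 0.24 (adjusted p = 2.0e-06 and 1.2e-05), with 2 of 3 probe sets lower. Chek1 was lower by -2.48 and -1.04, and the X-linked ubiquitin-conjugating enzyme Ube2a by -1.54 ± 0.53 and -1.91 ± 0.49, in 1 of 2 probe sets. The Ube2a call was lost without leptotene/zygotene replicate 1, the late-pachytene array or diplotene replicate 2 (adjusted p = 0.0553 to 0.094).

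Of 23 genes of M-phase entry, 4 were lower than both sides (17.4%, against 3.44% of all genes tested) and 1 was higher (4.35%, against 5.33%). Cdc25c, a phosphatase that activates CDK1, read 8.75 to 9.65 in leptotene/zygotene, 8.34 and 7.69 in mid-pachytene, 6.60 in late-pachytene, 6.95 and 7.05 in diplotene and 8.65 to 9.45 in round spermatids. Both its probe sets were lower, this one by -1.73 ± 0.28 and -1.78 ± 0.26 (adjusted p = 7.1e-05 and 3.8e-05). Pkmyt1, the kinase that holds CDK1 inactive, was the gene that was higher, with 7.90 to 8.004, then 10.16 to 11.35 and then 8.80 to 9.47, differences of 2.61 ± 0.23 and 1.37 ± 0.21 in 1 of 2 probe sets. Plk1 was lower by -1.03 ± 0.30 and -2.30 ± 0.27, but regained level within later prophase, from 8.57 and 9.06 in mid-pachytene and 8.26 in late-pachytene to 9.60 and 10.48 in diplotene (diplotene minus mid-pachytene 1.22, adjusted p = 0.046). Cdc25a was lower by -0.81 and -1.93, and Incenp, of the chromosomal passenger complex, by -1.58 ± 0.22 and -0.98 ± 0.20, in 2 of 3 probe sets.

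Of 35 genes of the spindle checkpoint, kinetochore and APC, 3 were lower than both sides (8.57%, against 3.44% of all genes tested) and 2 higher (5.71%, against 5.33%). The kinetochore genes Spc25 (-1.50 ± 0.22 and -1.40 ± 0.20, in 1 of 2 probe sets) and Cenpe (-1.19 ± 0.27 and -1.51 ± 0.25) and the checkpoint kinase gene Bub1 were lower. Cenpc1, which encodes an inner centromere protein, was higher by 0.76 ± 0.23 and 1.003 ± 0.21. Mad1l1 passed by 1.03 ± 0.40 and 1.22 ± 0.36 from signals of 3.67 to 5.64 in later prophase, and with signals under 5 raised to 5 its differences were 0.25 and 0.25.

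Of 38 replication genes, 29 were below leptotene/zygotene (76.3%, against 34.6% of all genes tested), 22 were above round spermatids (57.9%, against 30.2%) and 17 were both (44.7%, against 16.7%). Lower than both sides were 2 (5.26%, against 3.44%) and higher 4 (10.5%, against 5.33%). Rrm2, the small subunit of ribonucleotide reductase, was among the lower ones. It read 8.90, 9.65 and 9.50 in leptotene/zygotene, 6.86 and 6.68 in mid-pachytene, 5.96 in late-pachytene, 6.45 and 7.62 in diplotene, and 7.97, 9.29, 9.13 and 9.44 in round spermatids. The groups did not overlap, and it was lower by -2.64 ± 0.40 and -2.24 ± 0.37 (adjusted p = 4.3e-05 and 0.00012), with all 3 of its probe sets lower. Rfc1 was the other replication gene lower than both sides. The 4 members Mcm9, Orc5, Gins1 and Gins2 were higher, by 0.57 to 1.41. The Gins2 call (0.88 ± 0.36 and 1.01 ± 0.33, adjusted p = 0.046 and 0.018, in 1 of 2 probe sets) was lost on leaving out any leptotene/zygotene array, the late-pachytene array or either diplotene array, among others.

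Among 25 RNA-binding and translation factors, 3 were higher than both sides (12%, against 5.33% of all genes tested) and none lower (against 3.44%). Cpeb2, which binds the cytoplasmic polyadenylation element, read 8.36 to 8.83, then 9.95 to 11.90 and then 8.997 to 9.30, a difference of 2.24 ± 0.27 and 1.70 ± 0.24, in 1 of 3 probe sets. Boll, an RNA-binding protein of the DAZ family, was higher by 2.81 ± 0.32 and 0.81 ± 0.29 in 1 of 3 probe sets, with groups that overlapped. With the replicate number as a block its smaller difference was 0.53 (adjusted p = 0.175). That fit also leaves out the early- and late-pachytene arrays. With no block, the call was lost without the late-pachytene array, diplotene replicate 1 or round spermatid replicate 1 or 3 (adjusted p = 0.0642 to 0.106). For Msi2 the probe sets went opposite ways: of 5, 1 was higher (9.76 in later prophase, 8.23 and 7.61 on the 2 sides) and 1 lower (4.75 against 6.50 and 5.76).

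Of 35 cilium genes, 29 (82.9%, against 29.0% of all genes tested) were above leptotene/zygotene and 9 below round spermatids (25.7%, against 23.2%). Higher than both sides were 2 (5.71%, against 5.33%) and lower 1 (2.86%, against 3.44%), both close to the shares over all genes tested. Of 34 acrosome and round spermatid genes, 20 (58.8%) were above leptotene/zygotene, 24 (70.6%) below round spermatids and none on the same side of both; the mean signal of this list was 11.05 in mid-pachytene, 9.73 in late-pachytene, 11.15 in diplotene and 12.79 in round spermatids. Dnah7a, an axonemal dynein heavy chain, was higher by 4.02 ± 0.36 and 0.99 ± 0.33. With the replicate number as a block, a fit that also leaves out the late-pachytene array, its smaller difference was 0.62 (adjusted p = 0.169). With no block, the call was lost without the late-pachytene array (0.0655) or round spermatid replicate 4 (0.0592). Rfx1, of the RFX family, some members of which control cilium genes, was lower, at 7.76 to 8.22, then 5.17 to 7.32 and then 8.61 to 9.33, by -1.54 ± 0.26 and -2.44 ± 0.24. Of 9 centrin and tektin genes none was on the same side of both, with 7 (77.8%) above leptotene/zygotene.

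**Figure D3:**
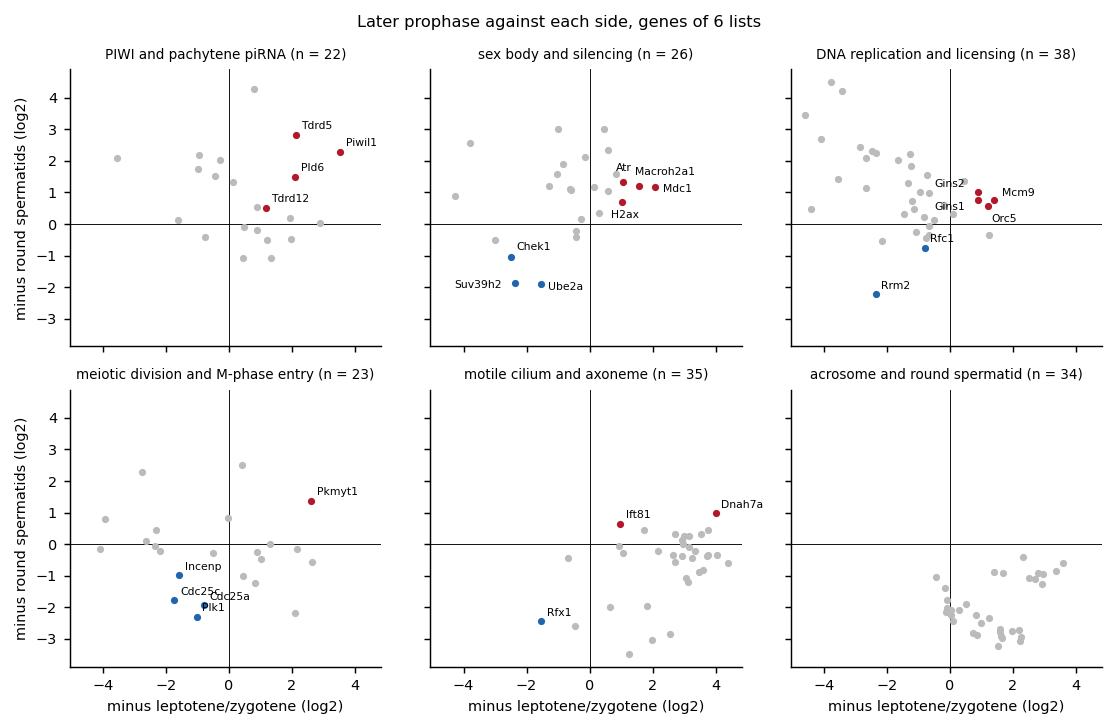
Log2 difference of later prophase from leptotene/zygotene (horizontal) and from round spermatids (vertical) for the genes of 6 function lists, 1 point per gene by its probe set of highest mean. Red genes were higher than both sides, blue lower than both and grey neither; piRNA genes that passed lie in the upper right, replication genes run to the upper left, and acrosome genes lie below 0 on the vertical axis.

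The remaining lists held at most 1 gene in each direction (5.33% of all genes tested were higher and 3.44% lower). Of 28 proteasome genes the testis subunit gene Psma8 was higher, at 12.86 to 13.48 against 10.51 to 11.11 and 10.92 to 11.70, and Psme3 lower by -1.92 ± 0.21 and -0.81 ± 0.19, in 1 of 2 probe sets. The Psme3 mid-pachytene arrays (9.90 and 9.45) lay in or next to the round spermatid range of 9.54 to 10.00. With mid-pachytene alone the smaller Psme3 difference was -0.07 (adjusted p = 0.841). Of 21 metabolism and testis isoform genes Cyct, the testis cytochrome c, was higher by 2.42 ± 0.23 and 1.01 ± 0.22, and the sterol carrier gene Scp2 lower by -2.04 ± 0.21 and -1.25 ± 0.19, in 1 of 2 probe sets. Of 24 ribosomal protein genes none was on the same side of both, with 14 below leptotene/zygotene (58.3%, against 34.6% of all genes tested) and 15 above round spermatids (62.5%, against 30.2%). Of 20 immediate early and stress genes Nr4a1 was lower, with 8.26 and 8.31 in mid-pachytene but 5.20 to 5.43 in late-pachytene and diplotene, against 7.88 to 8.47 and 8.25 to 9.20.

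The 10 autosomal genes ranked lowest were Abcg2, Rrm2, Pxylp1, Cpxm1, Tmem109, Coro2a, Dscc1, Tmem243, Ccng2 and Mex3d. Abcg2, the efflux transporter known to export Hoechst 33342, read 8.71, 8.71 and 9.30 in leptotene/zygotene, 7.56 and 6.02 in mid-pachytene, 5.85 in late-pachytene, 6.63 and 6.45 in diplotene, and 9.19, 9.24, 8.71 and 8.55 in round spermatids. The groups did not overlap, and the differences were -2.41 ± 0.31 and -2.42 ± 0.29 (adjusted p = 9.5e-06 and 6.4e-06). Coro2a, a coronin, was 7.80 to 8.29, then 5.11 to 6.56 and then 8.61 to 9.19. Dscc1, of the clamp loader that acts in sister chromatid cohesion, was 9.31 to 9.50, then 6.33 to 7.82 and then 8.10 to 10.52, in 1 of 2 probe sets. Cyclin gene Ccng2 was 7.80 to 8.39, then 5.09 to 6.54 and then 7.47 to 8.02, in 1 of 2 probe sets, and Mex3d, an RNA-binding protein gene, 10.79 to 11.25, 7.23 to 10.17 and 10.34 to 11.77. Tmem109 fell further within later prophase, from 8.74 and 7.99 in mid-pachytene to 6.50 and 6.97 in diplotene (adjusted p = 0.0023), and all 3 of its probe sets were lower than both sides. Over the 10 genes the differences ran from -2.64 to -2.01 and from -3.02 to -2.03.

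Chromosome X stood apart in both directions. Of its 548 probe sets tested, 0 were higher than both sides and 62 (11.3%) lower, in 57 genes; over the autosomes 6.34% of 18949 were higher and 2.87% lower, and single autosomes ranged from 1.93% to 3.76% lower. The median X-linked difference was -2.38 from leptotene/zygotene but 0.06 from round spermatids. Of 410 X-linked probe sets below leptotene/zygotene, 62 (15.1%) were also below round spermatids, 111 were above them and 237 passed neither way; of 6082 autosomal ones below leptotene/zygotene, 544 (8.94%) were also below round spermatids. For most X-linked transcripts that fell, the level in round spermatids was thus not shown to exceed the mean of the 5 later prophase arrays. That mean includes mid-pachytene, where the fall was least complete. The X-linked lower set had medians of 6.40 in mid-pachytene, 4.61 in late-pachytene, 5.19 in diplotene and 7.59 in round spermatids. A rise from late-pachytene alone was not counted here. The paper, which measured it from there, reports an average rise to round spermatids. No overlap held for 24 of the 62, and in 37 the late-pachytene signal was under log2 5, where GC-RMA bounds a fall. On chromosome Y, 3 of 11 probe sets were lower than both sides, those of Eif2s3y, Zfy2 and Usp9y; Zfy2, a zinc finger gene, went from 7.29 to 6.16 in mid-pachytene, 5.39 in late-pachytene, 5.78 in diplotene and 8.20 in round spermatids (means).

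**Figure D4:**
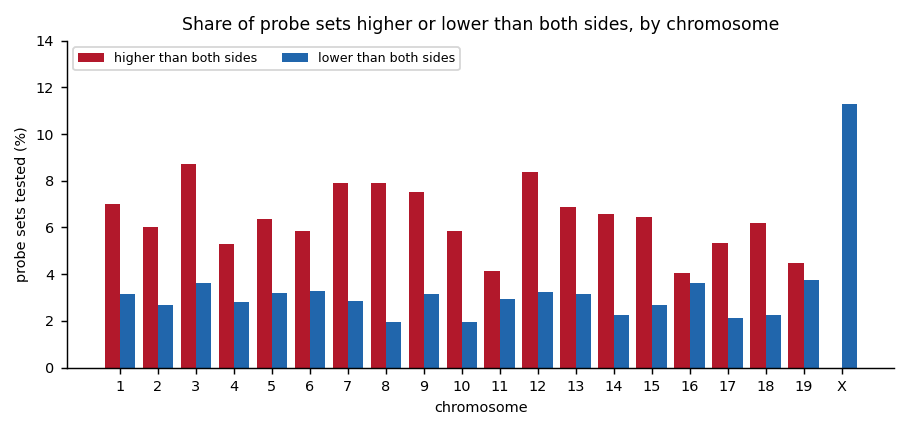
Percent of the probe sets tested on each chromosome that were higher (red) or lower (blue) than both sides in later prophase. Chromosome X has 0% higher and 11.3% lower, while the autosomes have 1.93% to 3.76% lower.

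The 10 X-linked genes ranked lowest were Lamp2, Tmem185a, Psmd10, Rpgr, Cstf2, Maoa, 1700013H16Rik, Stag2, Gemin8 and Pdk3. Psmd10, a chaperone of proteasome assembly, read 8.95, 8.68 and 8.98 in leptotene/zygotene, 7.67 and 7.30 in mid-pachytene, 4.73 in late-pachytene, 6.46 and 6.35 in diplotene, and 9.05, 8.84, 9.12 and 8.78 in round spermatids. It was thus level on the 2 sides and lower between them, by -2.37 ± 0.23 and -2.45 ± 0.21 (adjusted p = 8.7e-07 and 4.9e-07). Lamp2, a lysosomal membrane protein, was 8.02 to 8.94, then 3.57 to 6.28 and then 6.68 to 8.63, with differences of -3.01 and -2.48 once signals under 5 were raised to 5, and 1 of 4 probe sets lower than both. Rpgr, a GTPase regulator of cilia, was 7.54 to 8.21, then 4.60 to 5.86 and then 7.72 to 8.68.

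Stag2, a cohesin subunit, Gemin8, of the complex that assembles spliceosomal ribonucleoproteins, and Pdk3, a kinase of pyruvate dehydrogenase, were lower in diplotene than in mid-pachytene. Pdk3 read 10.82 to 11.48 in leptotene/zygotene, 9.50 and 8.83 in mid-pachytene, 6.96 in late-pachytene, 7.59 and 7.15 in diplotene and 9.52 to 10.31 in round spermatids; diplotene minus mid-pachytene was -1.79 (adjusted p = 0.0033). For Stag2 that difference was -1.97 (adjusted p = 0.0026) and for Gemin8 -1.72 (adjusted p = 0.0069), with late-pachytene at 6.06 and 5.17, near the diplotene means of 5.87 and 5.15. Of the 2 Stag2 probe sets tested, 1 was lower than both sides. Cstf2, a polyadenylation factor, was lower by -2.25 ± 0.25 and -2.62 ± 0.23 at the probe set ranked here, 1 of 3 tested; at its brightest probe set it was 3.34 below leptotene/zygotene and 1.73 above round spermatids. Its autosomal retrocopy Cstf2t differed by 0.33 and 0.50 and passed neither comparison. Of 8 X-linked parents of retrogenes 7 were below leptotene/zygotene (87.5%, against 74.8% of all X-linked probe sets tested). Below both was 1 (12.5%, against 11.3% of all X-linked probe sets tested). That gene was Utp14a (-3.72 ± 0.31 and -1.76 ± 0.28), with groups that overlapped. With signals under 5 raised to 5 its differences were -3.07 and -1.11. With mid-pachytene alone its smaller difference was -0.39 (adjusted p = 0.391). Of 10 X-derived retrogenes 7 were above leptotene/zygotene (70.0%, against 29.0% of all genes tested) and none was on the same side of both.

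Promoters of X-linked genes lower than both sides are shown by Psmd10, and those of autosomal genes by Rrm2, with CCAAT on either strand in capitals. Psmd10 lies at chrX:140956662-140956961 on the minus strand and Rrm2 at chr12:24708004-24708303 on the plus strand (RefSeq, GRCm38.p6).
Psmd10: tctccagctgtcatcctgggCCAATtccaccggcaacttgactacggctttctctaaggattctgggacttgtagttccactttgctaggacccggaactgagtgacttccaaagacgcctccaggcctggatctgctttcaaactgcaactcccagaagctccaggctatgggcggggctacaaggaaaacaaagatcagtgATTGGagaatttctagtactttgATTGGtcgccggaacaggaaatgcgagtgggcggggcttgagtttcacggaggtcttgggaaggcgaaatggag
Rrm2: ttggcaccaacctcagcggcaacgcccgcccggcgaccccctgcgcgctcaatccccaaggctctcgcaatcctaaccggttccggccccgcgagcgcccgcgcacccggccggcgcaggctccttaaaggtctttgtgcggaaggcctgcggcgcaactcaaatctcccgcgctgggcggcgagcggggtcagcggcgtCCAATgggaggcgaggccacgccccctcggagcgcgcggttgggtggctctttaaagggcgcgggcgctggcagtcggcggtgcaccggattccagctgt
CCAAT was in 55.1% of 69 promoters of X-linked genes that were lower, in 43.4% of 417 promoters of X-linked genes tested and in 38.0% of promoters of all genes tested. Over all genes that were lower it was in 42.8% of 568 promoters. Among the X-linked promoters the MYB core was in 36.2% of the lower and 44.8% of those tested, the GC box in 60.9% and 53.7%, and the E2F, RFX and CRE motifs in 7, 2 and 1 of the 69. Over all genes that were lower, the CRE motif was in 7.22% (against 4.74% of genes tested), the GC box in 67.6% (60.1%), the MYB core in 35.2% (38.3%), the E2F site in 9.86% (8.13%) and the RFX motif in 3.7% (4.52%). These are counts of letters in a window and were not tested.

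The fractions before leptotene entered neither difference, though they entered the filter and the shared estimate of spread. They lay mostly on the leptotene/zygotene side. All 5 later prophase arrays lay above all 4 spermatogonia arrays for 82.3% of the probe sets that were higher (22.0% of all tested) and above all 3 pre-leptotene arrays for 87.4% (25.9%). For those that were lower, all 5 lay below all spermatogonia arrays in 75.1% (26.1%) and below all pre-leptotene arrays in 83.9% (32.3%). The sets were chosen by the same 5 arrays, so part of the excess over all probe sets is set by that choice. The spermatogonia arrays also carried markers of other cells: round spermatid markers summed to 154882 and 216573 on replicates 1 and 2 and to 79381 and 48834 on replicates 3 and 4, and leukocyte markers to 2728 to 9367 over the 4. The part of this in these shares was not tested. The median signal of the higher set was 5.91 in spermatogonia, 5.94 in pre-leptotene, 6.42 in leptotene/zygotene, 6.44 in early-pachytene, 8.06 in mid-pachytene, 8.84 in late-pachytene, 8.47 in diplotene and 6.69 in round spermatids. The lower set went from 8.50 and 8.64 through 8.37, 7.80, 7.10, 5.85 and 6.36 to 8.14.

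The single early-pachytene array separated the 2 sets. Among 1355 higher probe sets whose mid-pachytene mean exceeded leptotene/zygotene, it lay less than midway between these for 1230 (90.8%, against 49.7% of all probe sets with such a rise), with a median position of 0.06 of the way. Among 675 lower probe sets it lay less than midway for 334 (49.5%, against 30.8%), with a median position of 0.51. With 1 array the early-pachytene level has no replicate check, and the array read 20849 for summed spermatogonial markers, close to the mid-pachytene values. Its pachytene-to-diplotene markers summed to 93122, against 38153 to 64095 in leptotene/zygotene and 123294 and 146096 in mid-pachytene. The array was of project 5 (projects are described below), which held no leptotene/zygotene or mid-pachytene array. Its position and its project therefore cannot be told apart.

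**Figure D5:**
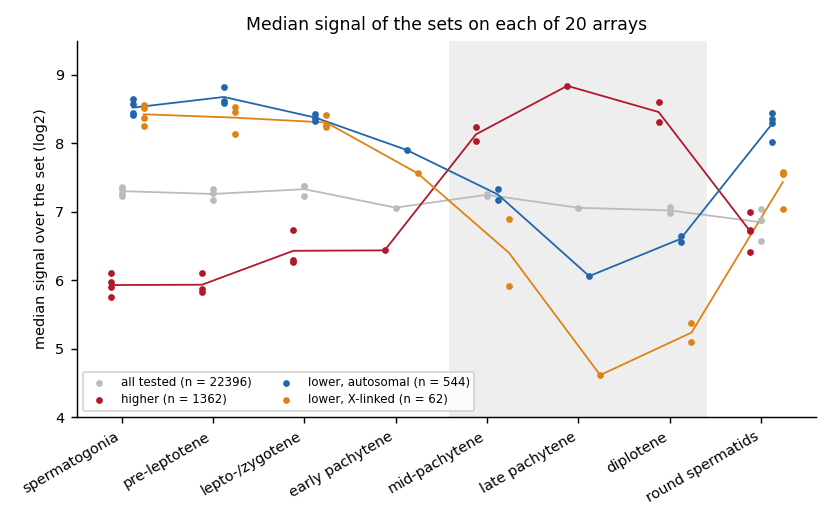
Median log2 signal over each set of probe sets on each of 20 arrays, 1 point per array, with lines through the means of the fractions and later prophase shaded. The higher set steps up between early and mid-pachytene, from 6.44 to 8.06, whereas both lower sets descend from leptotene/zygotene on and reach their lowest value in late-pachytene.

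Within later prophase the late-pachytene array was the extreme in most cases. It held the highest of the 3 fraction means for 975 of the 1362 higher probe sets and the lowest for 456 of the 678 lower ones, 42 of the 62 X-linked ones included. These are 71.6% and 67.3%, against 29.8% and 25.9% of all probe sets tested. With 1 array these extremes have no replicate check. The late-pachytene array was the only later prophase array of project 2, so its extremes and its project cannot be told apart. It was as well the later prophase array with the lowest round spermatid and Sertoli marker sums, 20238 and 1615, and the part of this in its extreme values was not tested. Without it, 1101 probe sets were higher and 525 lower. Between the replicated fractions, 130 of the higher probe sets (9.54%, against 6.56% of all tested) rose further from mid-pachytene to diplotene and 8 fell. Of the lower probe sets 154 (22.7%, against 12.7%) fell further and 4 rose, and on chromosome X 29 of the 62 (46.8%) fell further.

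The arrays had been made in several projects, recovered by matching signals to the study's own table of arrays. Project 6 held 1 array each of leptotene/zygotene, mid-pachytene, diplotene and round spermatids, and within it 97.4% of the higher and 99.1% of the lower probe sets kept their direction on both sides (16.8% and 18.3% of all tested lay that way). These arrays took part in the calls; called without them, 1234 probe sets were higher and 476 lower, and on the project 6 arrays 90.0% and 92.6% of those had the same direction on both sides.

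Probe sets of 1 gene did not always move together. Of 614 genes with a higher probe set and 2 or more tested, all probe sets were higher in 72, and of 318 with a lower one all were lower in 40. For 7 genes, Ghitm, Msi2, Mtdh, Nsd2, Sfmbt1, Slc7a6os and Smad5, probe sets were called in both directions. In Sfmbt1, a Polycomb-group gene, one went from 8.34 in leptotene/zygotene to 11.58 in later prophase and 10.83 in round spermatids, and another from 10.30 to 9.37 and 10.36. In Nsd2, a histone methyltransferase gene, the means were 5.75, 7.55 and 6.40 for the first and 11.39, 10.28 and 11.03 for the second. Whether such probe sets read different transcripts of the gene was not tested.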

How the data were processed

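RNA of sorted testis cells was measured on 20 Affymetrix MOE430 version 2 arrays. The values deposited by the authors are intensities after GC-RMA, not logged, from GeneSpring GX; the table holds 45037 probe sets and no control probe sets, and depth has no meaning for arrays, whose number limits the precision. Arrays had median signals of 11.1 to 12.7, and 34.6% to 39.8% of probe sets reached log2 5. Groups came from the labels. Replicates are labelled biological, each a pool of sorts.

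The log2 of each intensity was used. In R 4.3.3, limma 3.58.1 fitted 8 fractions as groups over 20 arrays (12 residual degrees of freedom and 3.69 prior). Later prophase was the mean of its 5 arrays, set against leptotene/zygotene and against round spermatids. Tests were two-sided and were adjusted by Benjamini-Hochberg, at 0.05, across the 22396 probe sets that reached log2 5 on 2 or more arrays. The single late-pachytene array was assumed to vary like the others. The fit was tested on simulated data. Lists were described by counts and medians, each gene by its probe set of highest mean, with no test of the list.

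Genes were named by rule: 20 higher, 10 lower autosomal and 10 lower X-linked by the smaller difference among probe sets with no overlap, and at most 4 per list. Members and lists were chosen with earlier results of these data known. Of the probe sets, 34945 had 1 gene symbol, 932 several and 9160 none in the annotation used; 34741 were matched by gene ID, and chromosomes and promoters came from RefSeq (GRCm38.p6). Array projects were found by equal signals with the study's own table of arrays, whose values were used for nothing else.

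Alternatives were a floor, other filters and normalizations, other groupings, replicate and project blocks, and each array left out. Python 3.11.15 with pandas 2.3.3 and matplotlib 3.10.9 made counts and plots.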

Additional observations from a re-analysis of the deposited data

Results flagged for a closer look

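Of 80 groups of arrays looked at (round spermatids and later prophase for each of the 40 ranked genes), 4 held an array apart from the others by Dixon's criterion. The later prophase groups pool 3 fractions, and the genes were ranked on these same values. The count of 4 therefore cannot be set against a chance rate. Elfn2 read 3.53 in round spermatid replicate 4, against 6.10 to 6.60 in the other 3. Dscc1 read 6.33 in late-pachytene, against 7.43 to 7.82 in the other 4 later prophase arrays. Cstf2 read 4.63 in late-pachytene, against 5.46 to 5.60. Maoa, a monoamine oxidase, read 5.65 in mid-pachytene replicate 1, against 4.97 to 5.02.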

How the results depend on the processing

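Of the 78 probe sets named by rule, 51 passed in every setting in which they were tested and 27 lost their call in at least 1. The counts higher and lower than both sides stayed within 1.5 times of 1362 and 678 under all settings but 2. With a difference of at least 1 asked for, 922 were higher and 432 lower. With mid-pachytene alone as later prophase, 605 were higher and 242 lower, and against leptotene/zygotene 3062 were higher and 3417 lower. With late-pachytene alone 4234 were higher and 2805 lower than round spermatids, and with diplotene alone 3181 and 2431. The cause was not tested. In mid-pachytene alone the smaller difference turned its sign for Tex15 (0.34), Smc3 (0.0109) and Nr4a1 (0.0421).

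With 1 array left out at a time, 1101 to 1525 probe sets were higher than both sides and 525 to 761 lower; against leptotene/zygotene 5090 to 6178 were higher and 6367 to 7435 lower, and against round spermatids 5771 to 6885 and 3798 to 4508. The fits without project 6 and without spermatogonia and early-pachytene arrays were added after the data were seen.

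Replicate numbers were not taken to pair the arrays, and the labels do not say what a number shares. Same-numbered arrays deviated together with r of 0.02 to 0.70 (13 pairs, median 0.46). Same-project arrays had a median r of 0.46 (10 pairs) and pairs sharing neither -0.28 (27 pairs). Centring on fraction means builds in part of this contrast. Some same-numbered arrays shared a project, such as replicate 1 of mid-pachytene, diplotene and round spermatids in project 4. The main fit treated all arrays as independent. As a block, with the replicate number in the fit, 1405 probe sets were higher and 719 lower, and with the project block 1682 and 900. Signals under log2 5 limit falls, and the single late-pachytene array limits what can be said of that fraction.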
